A study of Homo sapiens with 15 samples.

Results

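The 3 Hodgkin lymphoma lines known from background as derived from B cells, L428, L1236 and KM-H2, were set against 3 lines of other B cell malignancies. They were picked by line, not by any measured value, to hold the lineage of origin constant, and made up 6 arrays against 5, or 11 of the 15 arrays and 6 of the 9 lines of the series. L428, L1236 and KM-H2 are labelled as classical Hodgkin lymphoma and had 2 arrays each. Of the other B-cell lines, Namalwa is labelled as Burkitt lymphoma (2 arrays), SU-DHL-4 as a B cell non-Hodgkin lymphoma (1 array) and Reh as a B cell acute lymphoblastic leukaemia (2 arrays). The 4 arrays of the T-derived lines HDLM2, L540 and L540Cy entered no comparison. All were untreated cultures as far as the labels say. Each line descends from 1 patient, Namalwa is known to carry Epstein-Barr virus and Reh is known as a precursor B cell line, so disease, stage of the B cell and the traits of single lines cannot be told apart within the comparison.

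The malignant cells of classical Hodgkin lymphoma, named after Hodgkin, Reed and Sternberg, mostly arise from germinal centre B cells, and they are known for having lost much of the B cell programme. A B cell normally reads antigen through its receptor, an immunoglobulin held by the chains CD79A and CD79B, which signal through the kinases SYK and BTK to the lipase PLCG2. The lineage is kept by transcription factors such as PAX5, EBF1, PU.1 (SPI1) and the octamer-binding OCT2 (POU2F2) with its coactivator POU2AF1. Hodgkin cells are also known for constant activity of NF-kB, JAK-STAT and AP-1, and for CD30 (TNFRSF8) on their surface.

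RNA was measured on Affymetrix U133 Plus 2.0 arrays, and the deposited values are log2 signals after robust multi-array average (RMA) normalization. Per the series design the 2 arrays of a line are biological duplicates. The SD of the difference between them, over 19775 genes, was 0.24 to 0.30 log2 in the Hodgkin lines, 0.52 in Namalwa and 0.62 in Reh. The array Reh 1 showed signal that SU-DHL-4 otherwise had alone. In 30 genes marking SU-DHL-4, Reh array 1 exceeded Reh array 2 by a median of 3.62 log2, and it exceeded the highest of the remaining arrays by 2.49 log2. Genes marking any of the other 5 lines showed no such excess in an array of another line (at most 0.09 log2). Results are therefore given with and without Reh array 1. Namalwa array 2 had the lowest upper quartile of the 11 arrays, 7.31 against 7.56 to 7.72 in the others. Pearson correlations over genes were 0.91 to 0.93 between Hodgkin lines, 0.94 to 0.95 between the other B-cell lines and 0.88 to 0.90 across the groups. Averages of Hodgkin cell and B cell markers separated the groups of lines. They are values per line and do not check single arrays such as Reh 1. Origin of the Hodgkin lines in B cells was taken from background and was not tested by these markers. The mean signal of 6 Hodgkin cell markers was 10.09 to 11.23 in the Hodgkin lines and 5.89 to 6.54 in the other B-cell lines, and that of 6 measured B cell markers was 5.95 to 6.43 against 10.16 to 11.32. Markers of precursor B cells averaged 4.13 to 4.18 in the Hodgkin lines and 4.59 to 10.51 in the other B-cell lines. T cell markers averaged 4.87 to 5.60 against 5.21 to 5.36, NK cell markers 5.09 to 5.30 against 5.15 to 5.26 and myeloid markers 4.59 to 5.40 against 4.60 to 4.76. The 4 stromal markers averaged 7.64 to 7.91 in the Hodgkin lines and 5.95 to 7.58 in the others, without overlap, and 0 of the 4 was called. They include VIM, and their part in the results was not tested. The 1 measured erythroid marker was at 6.03 to 6.18 against 5.92 to 6.13. Of the 5 precursor B cell markers 0 reached 6 log2 in a Hodgkin line and 5 did in another B-cell line. Of 7 T cell markers 2 did so in either group. Of 6 myeloid markers 2 did in a Hodgkin line and 1 in another B-cell line.

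Which genes separate the Hodgkin lines from the other B-cell lines was asked with 1 mean per line, 3 lines against 3. The Hodgkin lines had 107 higher and 69 lower genes (limma, Benjamini-Hochberg adjusted p under 0.05, referred to here as called), 0.541% and 0.349% of the 19775 genes tested and 0.89% together. Differences reached 1 log2 in 103 and 66 of them, a factor of 2 in signal, and 46 and 28 by at least 4 log2. Before adjustment 2507 genes (12.7%) had a p under 0.05. Neither line means nor arrays of the groups overlapped in any of the 176 called genes. Over all genes line means were apart in 21.1% (9.13% higher, the rest lower) and arrays in 8.52%, and the same means gave the calls. Without Reh array 1, 78 genes were higher and 50 lower (0.394% and 0.253%), and 127 of the 176 calls were kept. Leaving out a line gave 82 (SU-DHL-4), 96 (Namalwa), 106 (L1236), 142 (Reh), 151 (L428) or 220 (KM-H2) called genes. The excess of higher genes turned round without SU-DHL-4 (36 higher and 46 lower) and without Namalwa (43 and 53). A group of 44 genes, 25 higher and 19 lower, was called in all of these 7 fits and in the fit of all arrays, a criterion chosen after the data were seen.

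**Figure D1:**
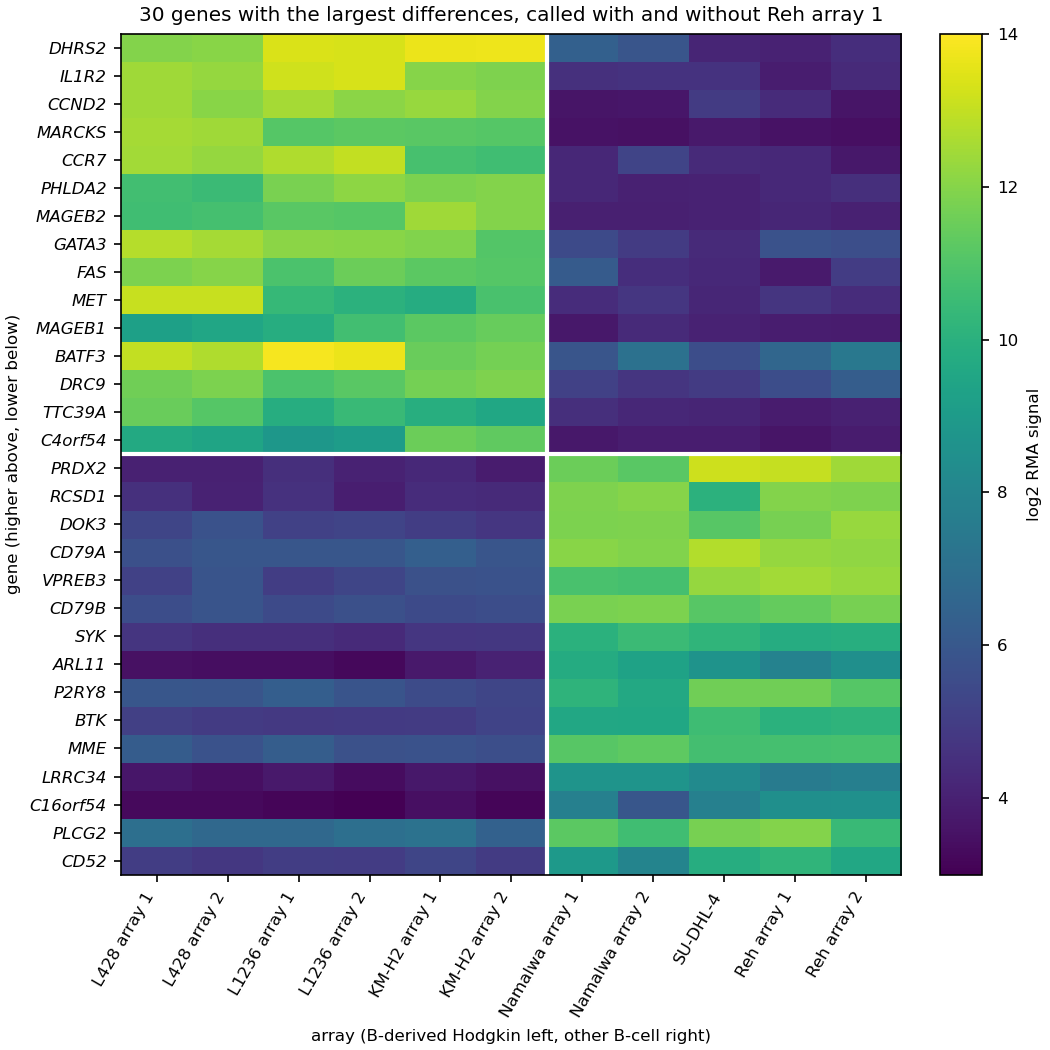
Heat map of the log2 RMA signal (colour) of 30 genes (vertical axis, 15 higher above the white line and 15 lower below it) on 11 arrays (horizontal axis, Hodgkin arrays left of the white line, other B-cell arrays right). The genes have the largest differences among those called with and without Reh array 1, and for each the Hodgkin arrays all lie on one side of the others.

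In the Hodgkin lines, several genes of B cell receptor signalling were lower. Members of this list and of the lists below were chosen with earlier results of these data known. Their called shares, set beside that of all genes, may partly reflect this choice and are no independent evidence. Of 27 measured members of the B cell receptor signalling list 7 were lower, 0 higher and 20 did not pass (25.9% called, against 0.89% of all genes). The median difference was -1.69 log2, against -0.04 over all genes, and 5 differences were above 0 (8553 of the 19775 over all genes). The lower members were CD79A, CD79B, SYK, BTK, PLCG2, DOK3 and CD72, and all but CD72 were also called without Reh array 1. CD79A had line means of 5.81, 5.94 and 6.12 in L428, L1236 and KM-H2 and of 11.97, 12.72 and 12.21 in Namalwa, SU-DHL-4 and Reh, the order of lines used below. Its difference was -6.34 ± 0.22 log2 (SE, adjusted p = 0.00142). CD79B stood at 5.72, 5.58 and 5.53 in the Hodgkin lines and at 11.81, 11.14 and 11.58 in the other B-cell lines, a difference of -5.90 ± 0.20 log2 (SE, adjusted p = 0.00142). In both genes the groups were far apart, with every Hodgkin array in a narrow band.

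The kinase gene SYK was at 4.58, 4.39 and 4.78 in the Hodgkin lines, against 10.27, 10.19 and 9.85 in the other B-cell lines (-5.52 ± 0.17 log2, SE, adjusted p = 0.00142). BTK, the kinase downstream of it, was at 4.999, 4.84 and 5.05 in the Hodgkin lines and at 9.56, 10.60 and 10.09 in the other B-cell lines (-5.12 ± 0.28 log2, SE, adjusted p = 0.00392). PLCG2, the phospholipase that these kinases activate, was at 6.87, 6.86 and 6.78 in the Hodgkin lines, against 10.94, 11.72 and 11.21 (-4.45 ± 0.22 log2, SE, adjusted p = 0.0037). Its 2 Reh arrays differed, with 11.96 in array 1 and 10.46 in array 2, and without array 1 the difference was -4.20 log2 (adjusted p = 0.0133). DOK3, an adaptor that dampens receptor signals, was at 5.54, 5.18 and 4.87 in the Hodgkin lines and at 11.85, 11.15 and 12.03 in the others (-6.48 ± 0.30 log2, SE, adjusted p = 0.00286). CD79A, CD79B, SYK, BTK, PLCG2 and DOK3 were called in every one of the 29 alternative fits, which change the lines, arrays, probe sets, scaling or variance model. CD72, a surface inhibitor of the receptor, was at 4.59, 4.50 and 4.64 against 9.37, 8.52 and 7.89 (-4.01 log2, adjusted p = 0.0194), and the call was lost on leaving out any line except Namalwa or Reh (0.051 to 0.083 as adjusted p) and on leaving out Reh array 1 (0.0865). BLNK, the linker between SYK and PLCG2, varied within the Hodgkin lines, at 3.63, 6.78 and 8.36, and stood at 10.64, 10.85 and 12.40 in the other B-cell lines. Its groups did not overlap, but its difference of -5.04 log2 did not pass (adjusted p = 0.209).

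A gene was represented by its brightest probe set. Averaging its probe sets instead gave smaller differences for CD79B (-2.25 log2), PLCG2 (-2.99 log2) and DOK3 (-4.01 log2), all still called.

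**Figure D2:**
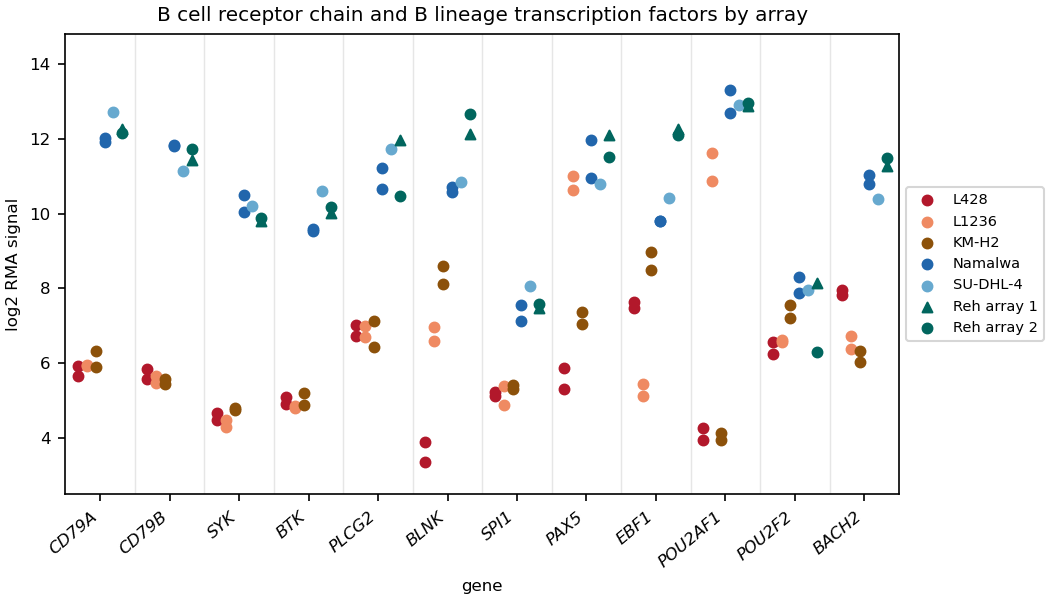
Log2 RMA signal (vertical axis) of 12 genes of the B cell receptor chain and of B lineage transcription factors (horizontal axis), 1 point per array coloured by line, with the 3 Hodgkin lines left within each gene and Reh array 1 as a triangle. The Hodgkin points of CD79A, CD79B, SYK, BTK, PLCG2 and SPI1 lie together below the others, while those of PAX5, EBF1, POU2AF1 and BLNK spread by line.

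The test called 2 transcription factors of the B lineage, and several differed widely among the Hodgkin lines. Of 22 measured members 2 were lower, 0 higher and 20 did not pass (9.09% called, against 0.89% of all genes, median -1.62 log2). An unadjusted limma p under 0.05 was found for 11 of the 22, against 12.7% of all genes. Among the 3 Hodgkin lines 20 of the 22 differed (F test, against 43.8% of all genes). The median range of those line means was 2.04 log2, against 0.43 over all genes. SPI1, which encodes PU.1, was at 5.19, 5.14 and 5.37 in the Hodgkin lines and 7.34, 8.07 and 7.53 in the other B-cell lines, a difference of -2.41 ± 0.22 log2 (SE, adjusted p = 0.0167). The call was lost on leaving out L428, L1236 or Reh (0.0578 to 0.0669 as adjusted p). BACH2, a repressor of plasma cell differentiation, was at 7.89, 6.56 and 6.18 against 10.91, 10.38 and 11.38 (-4.01 log2, adjusted p = 0.0469), and L428 had the highest of the 3 Hodgkin values. This call was among the weakest and was lost on leaving out any line except L428 (0.0779 to 0.171 as adjusted p), on leaving out Reh array 1, L428 array 1 or Namalwa array 2 (0.0523 to 0.0593), with the mean of its probe sets (-4.62 log2, 0.109) and with its most variable probe set (-5.23 log2, 0.165). PAX5, the factor that fixes B cell identity, was at 5.60, 10.81 and 7.21 in the Hodgkin lines, where L1236 lay within the range of the other B-cell lines (11.46, 10.78 and 11.81) and L428 and KM-H2 lay well below it (-3.48 log2, adjusted p = 0.385). POU2AF1 showed the same line, L1236, at 11.24, with 4.12 in L428 and 4.05 in KM-H2, against 12.99, 12.89 and 12.91 in the other B-cell lines. EBF1 had another order, with 7.55, 5.29 and 8.73 in the Hodgkin lines and 9.81, 10.41 and 12.17 in the others, so that its highest Hodgkin value was that of KM-H2. POU2F2, which encodes OCT2, overlapped between the groups in its brightest probe set, at 6.42, 6.60 and 7.39 against 8.10, 7.96 and 7.23 (-0.96 log2, adjusted p = 0.363). Its other probe sets were lower too, with differences from -0.28 to -3.02 log2, so the size of the fall depended on the probe set. The differences of PAX5, POU2AF1 (adjusted p = 0.296), EBF1 (0.265) and POU2F2 did not pass.

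Among surface antigens and stage-specific genes of B cells few single genes passed the test. Of 24 measured B cell surface antigens 2 were lower and 0 higher (8.33% called, against 0.89% of all genes, median -0.98 log2). An unadjusted limma p under 0.05 was found for 11 of the 24, against 12.7% of all genes. CD52, a small glycoprotein of lymphocytes, was at 4.88, 4.98 and 5.09 in the Hodgkin lines and at 8.44, 9.87 and 9.91 in the others (-4.42 ± 0.43 log2, SE, adjusted p = 0.0206), and CD72 was described above. The call of CD52 was lost on leaving out any line except Namalwa (0.0521 to 0.0756 as adjusted p). MS4A1, which encodes CD20, was near the lowest signals in every Hodgkin line, at 4.33, 4.26 and 4.09, and ranged widely in the other B-cell lines, with 7.51 in Namalwa, 12.48 in SU-DHL-4, 11.47 in Reh array 1 and 4.12 in Reh array 2. Its difference was -5.04 log2 with all arrays (adjusted p = 0.238) and -3.81 log2 without Reh array 1 (0.566). CD22, an inhibitory receptor of B cells, was at 6.67, 6.69 and 6.59 against 8.40, 10.41 and 9.56 and did not pass (adjusted p = 0.112).

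Among 12 immunoglobulin and surrogate light chain genes VPREB3 was the 1 lower gene, and 0 were higher (8.33% called, against 0.89% of all genes, median -2.55 log2). VPREB3, which binds immunoglobulin chains during B cell development, was at 5.49, 5.17 and 5.77 in the Hodgkin lines and at 10.81, 12.25 and 12.39 in the other B-cell lines (-6.34 ± 0.47 log2, SE, adjusted p = 0.0099). It was also the 1 called gene of 18 precursor B cell genes (5.56%), whose median of -2.22 log2 was -1.22 log2 with Reh left out. JCHAIN, which joins immunoglobulin polymers, was at 3.49, 3.53 and 3.37 in the Hodgkin lines, at 12.51 in Namalwa and 12.45 in SU-DHL-4, and at 11.84 and 3.50 in Reh arrays 1 and 2, and did not pass (adjusted p = 0.118). IGLC1, a lambda light chain constant gene, was at 13.07 in KM-H2, with 5.67 in L428 and 5.56 in L1236, against 14.28, 10.57 and 9.74 in the other B-cell lines. KM-H2 thus lay inside the range of the other B-cell lines for this gene.

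In the germinal centre list 3 of 17 members were lower and 1 was higher (23.5% called, against 0.89% of all genes, median -2.41 log2). An unadjusted limma p under 0.05 was found for 10 of the 17, against 12.7% of all genes. MME, the CD10 peptidase, was at 5.98, 5.995 and 5.72 in the Hodgkin lines, against 11.20, 10.72 and 10.78 (-5.0 ± 0.18 log2, SE, adjusted p = 0.00142), and CD38, an enzyme of germinal centre and plasma cells, was at 5.28, 5.29 and 5.24 against 9.50, 9.85 and 9.64 (-4.39 ± 0.13 log2, SE, adjusted p = 0.00142). Both were called in all 29 alternative fits, and BACH2 was the third. RGS1 (4.20 log2 as the mean of its probe sets), a brake on chemokine receptor signals, was the higher one, at 11.57, 12.17 and 12.30 in the Hodgkin lines and 3.89, 4.79 and 6.92 in the others (6.81 log2, adjusted p = 0.0348), and the call was lost on leaving out any line except Reh (0.0829 to 0.133 as adjusted p) and on leaving out Reh array 1 (0.054). BCL6, the master repressor of the germinal centre, was at 8.83, 5.32 and 9.85 in the Hodgkin lines and 10.91, 13.04 and 11.34 in the others and did not pass (adjusted p = 0.336). Of 14 plasma cell genes (14.3% called) CD38 was lower and ELL2, an elongation factor used in antibody secretion, was higher (5.001 log2, adjusted p = 0.0469). ELL2 was at 11.56, 11.19 and 10.72 in the Hodgkin lines, against 6.16, 4.94 and 7.37, and the call was lost on leaving out any line except Reh (0.0716 to 0.171 as adjusted p), on leaving out Reh array 1, KM-H2 array 2 or Namalwa array 2 (0.0619 to 0.122) and with the mean of its probe sets (3.06 log2, 0.0665).

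To show the letters before the starts of such genes, promoter windows of 300 bases around the gene start were taken from RefSeq (GRCh38.p14). Windows of 26 genes that the results turn on were looked up and 20 were found. They were searched on both strands for the octamer ATTTGCAT, the PU.1 motif GAGGAAGT, the AP-1 motif TGANTCA, the EBF1 motif CCCNNGGG, the E-box CAGGTG and the NF-kB motif. The E-box, EBF1 and NF-kB matches are not in capitals. The 4 windows printed were chosen after this search because they hold one of the first 3 motifs, which no other window of the 20 did. In 8 of the 20 none of the 6 motifs was found, and 4 held the EBF1, 9 the E-box and 3 the NF-kB motif. Capitals mark the octamer in VPREB3 and the PU.1 motif, here read on the opposite strand, in BTK. The VPREB3 window is chr22:23754376-23754675, minus strand, and that of BTK is chrX:101390747-101391046, minus strand.
VPREB3: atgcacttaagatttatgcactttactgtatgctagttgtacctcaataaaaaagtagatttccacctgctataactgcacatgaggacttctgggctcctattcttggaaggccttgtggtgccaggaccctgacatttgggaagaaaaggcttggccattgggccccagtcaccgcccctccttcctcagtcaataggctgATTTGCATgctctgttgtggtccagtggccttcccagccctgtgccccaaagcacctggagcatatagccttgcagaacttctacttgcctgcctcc
BTK: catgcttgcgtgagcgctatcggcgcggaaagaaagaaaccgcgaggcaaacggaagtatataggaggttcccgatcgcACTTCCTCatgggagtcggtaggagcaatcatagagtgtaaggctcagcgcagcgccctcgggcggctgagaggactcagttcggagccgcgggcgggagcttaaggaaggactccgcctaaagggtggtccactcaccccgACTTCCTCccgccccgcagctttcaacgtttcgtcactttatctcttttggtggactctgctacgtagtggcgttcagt
The octamer began at position -47 relative to the start of VPREB3, and the PU.1 motif at -171 and -29 relative to that of BTK. Among 39 lower genes with a window that were called with and without Reh array 1, 2 (5.13%) held the octamer and 1 (2.56%) the PU.1 motif, against 1.51% and 2.61% of 15384 measured genes. The EBF1 motif was in 28.2% of the 39 and 21.7% of the measured genes, and the E-box in 25.6% and 19.6%. These matches describe the letters and were not tested as binding sites.

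Of the 15 largest falls, 9 were of genes already described. PRDX2, a peroxiredoxin that removes peroxides, had the largest value, with 4.01, 4.27 and 4.05 in the Hodgkin lines and 11.36, 13.14 and 12.71 in the other B-cell lines (-8.29 log2, adjusted p = 0.0046). This rested on 1 of its 4 probe sets, whose mean was -2.67 log2, still called. The others had differences of -1.82, -0.60 and 0.05 log2, and the call was lost with its brightest probe set over the 11 arrays (-1.82 log2, 0.16). RCSD1, an actin-capping regulator of leukocytes, was at 4.30, 4.26 and 4.35 against 11.93, 10.08 and 11.91 (-7.001 ± 0.54 log2, SE, adjusted p = 0.0113), with SU-DHL-4 the lowest of the other lines. The call was lost with the T-derived lines in the fit (0.0911). P2RY8, a receptor that confines B cells to the germinal centre, was at 5.93, 6.07 and 5.41 in the Hodgkin lines and 9.88, 11.63 and 11.36 in the others (-5.15 log2, adjusted p = 0.0213), and the call was lost on leaving out any line except Namalwa (0.0523 to 0.0722 as adjusted p). ARL11, a small GTPase-like protein, had -5.24 log2 (adjusted p = 0.00982, and -2.76 log2 as the mean of its probe sets), LRRC34 -4.63 log2 (0.00499) and C16orf54 -4.50 log2 (0.0194). The call of ARL11 was lost on leaving out SU-DHL-4 (0.0517 as adjusted p) and that of C16orf54 on leaving out any line except Namalwa or Reh (0.0508 to 0.0856 as adjusted p) and on leaving out Namalwa array 1 (0.0824).

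Several markers of Hodgkin cells were higher in the Hodgkin lines. Of 31 measured members 9 were higher, 0 lower and 22 did not pass (29.0% called, against 0.89% of all genes). Differences above 0 were found in 30, against 8553 of the 19775 over all genes, and the median was 3.44 log2. The list holds genes long known from Hodgkin lines, among them lines measured here, so its direction is no independent evidence. The 9 were CCR7, PHLDA2, GATA3, BATF3, IL13RA1, CCL5, TNFRSF8, MSC and BATF, all called without Reh array 1 too. TNFRSF8, which encodes CD30, was at 10.46, 10.49 and 9.61 in the Hodgkin lines and 6.51, 6.03 and 5.71 in the other B-cell lines (4.10 ± 0.33 log2, SE, adjusted p = 0.0131), with no overlap between arrays, as in every called gene. The call was lost on leaving out SU-DHL-4 (0.0651 as adjusted p). CCR7, a chemokine receptor that guides lymphocytes to lymph nodes, was at 12.37, 12.85 and 10.73 against 4.75, 4.30 and 3.99 (7.64 ± 0.59 log2, SE, adjusted p = 0.0116), and the call was lost on leaving out Namalwa or SU-DHL-4 (0.0515 to 0.0591 as adjusted p). PHLDA2 was at 10.59, 11.97 and 11.90 against 4.12, 4.04 and 4.37 (7.31 log2, adjusted p = 0.00425), with 2.52 log2 as the mean of 3 probe sets, 1 of which had -0.02 log2. CCL5, a chemokine that draws T cells, was at 11.72, 11.64 and 12.46 in the Hodgkin lines and 6.30, 5.97 and 7.03 in the others (5.51 ± 0.36 log2, SE, adjusted p = 0.00718). FUT4, whose enzyme makes CD15, was at 8.87, 9.54 and 9.10 against 5.24, 4.62 and 7.51 and did not pass (3.38 log2, adjusted p = 0.175), with Reh the highest of the other lines. CCL17, the chemokine TARC, was at 12.76 in L428 and 13.22 in L1236 but 8.72 in KM-H2, against 6.41, 6.15 and 5.92, and did not pass (5.41 log2, adjusted p = 0.174). TRAF1, an adaptor of TNF receptors, was at 10.77, 5.27 and 9.70 in the Hodgkin lines, so that L1236 lay below every one of the other B-cell lines (5.41, 7.09 and 6.07, adjusted p = 0.561).

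**Figure D3:**
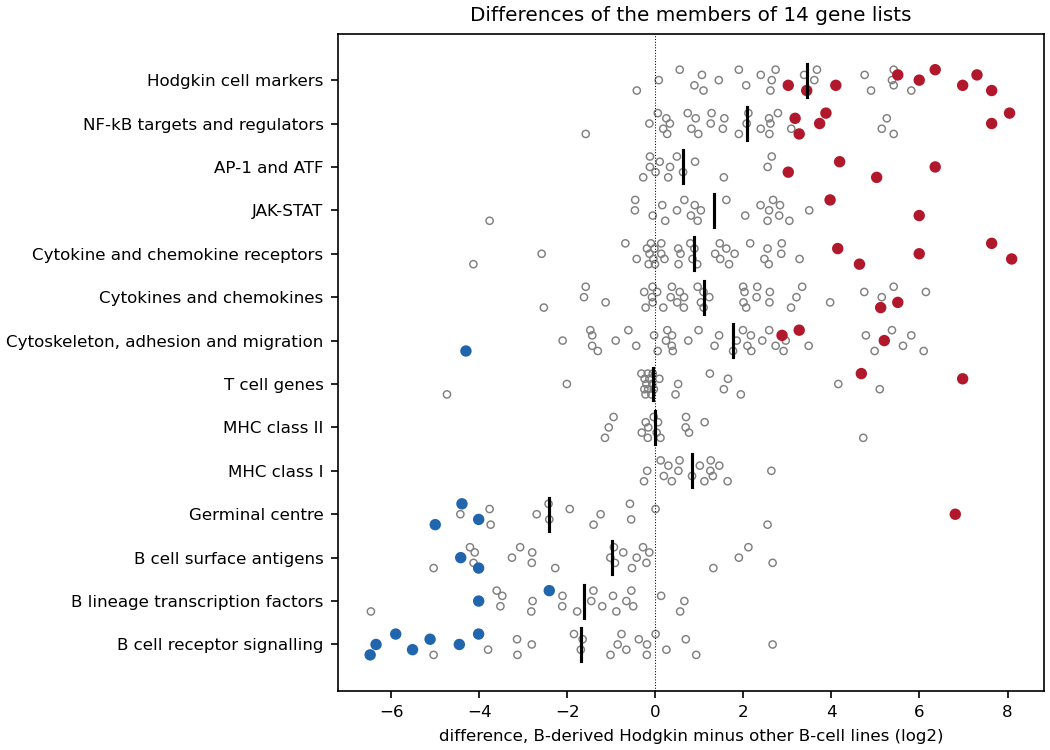
Difference of line means (horizontal axis, log2, B-derived Hodgkin minus other B-cell lines) of the measured members of 14 gene lists (vertical axis). Filled points passed the adjusted p of 0.05 (red higher, blue lower), open points did not, and bars are list medians, which run from 3.44 log2 for Hodgkin cell markers to -2.41 log2 for germinal centre genes.

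Antagonists of B lineage factors had 3 higher and 0 lower members of 17 (17.6% called, against 0.89% of all genes), with a median of 0.02 log2. GATA3, a T cell transcription factor, was at 12.64, 12.07 and 11.47 in the Hodgkin lines and 5.20, 4.33 and 5.71 in the others (6.98 ± 0.46 log2, SE, adjusted p = 0.00718) and was called in all 29 alternative fits. ID2, an inhibitor of the E proteins, was at 10.87, 11.85 and 12.34 against 8.39, 7.81 and 7.29 (3.86 ± 0.47 log2, SE, adjusted p = 0.0398), and the call was lost on leaving out any line except L428 (0.0664 to 0.143 as adjusted p), on leaving out L428 array 1 or Namalwa array 2 (0.0551 to 0.0566), without Reh array 1 together with Namalwa array 2 (0.0563) and after quantile normalization (0.0531). MSC, also called ABF-1, was at 10.002, 9.72 and 9.01 against 6.29, 5.98 and 6.15 (3.44 ± 0.28 log2, SE, adjusted p = 0.0137), and the call was lost on leaving out any line except L428 or KM-H2 (0.0516 to 0.0656 as adjusted p).

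AP-1 and ATF genes had 4 higher and 0 lower members of 17 (23.5% called, against 0.89% of all genes, median 0.63 log2). BATF3, a leucine zipper partner of JUN, was at 12.85, 13.76 and 11.58 in the Hodgkin lines and 6.50, 5.62 and 7.01 in the others (6.36 ± 0.65 log2, SE, adjusted p = 0.0232), highest in L1236 and lowest in KM-H2. Its relative BATF was at 11.10, 11.12 and 11.80 against 8.17, 8.42 and 8.38 (3.02 ± 0.23 log2, SE, adjusted p = 0.0108). ATF3, a stress-induced factor, was at 11.25, 10.93 and 10.32 in the Hodgkin lines and 5.36, 5.03 and 7.02 in the others (5.03 ± 0.59 log2, SE, adjusted p = 0.0344). JUN was at 11.02, 10.09 and 10.02 against 6.83, 5.68 and 6.06 (4.19 ± 0.41 log2, SE, adjusted p = 0.0215), while JUNB, at 10.83, 10.12 and 11.54 against 8.31, 8.39 and 7.86, did not pass (2.64 log2, adjusted p = 0.0686). As means of their probe sets ATF3 and JUN had 2.60 and 2.89 log2, still called. In none of the 4 higher genes did an array of a Hodgkin line overlap one of the other B-cell lines. The same held for all 176 called genes and for 8.52% of all genes. The call of BATF was lost on leaving out Namalwa or SU-DHL-4 (0.0522 as adjusted p). The call of BATF3 was lost on leaving out any line except KM-H2 (0.0537 to 0.108 as adjusted p), that of ATF3 on leaving out any line except Reh (0.0607 to 0.136 as adjusted p) and that of JUN on leaving out L1236, SU-DHL-4 or Reh (0.0669 to 0.0764 as adjusted p).

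The AP-1 motif TGANTCA was the only one of the first 3 motifs in the windows of higher genes that were looked up, in TNFRSF8 and in FAS, the death receptor gene described below. Capitals mark it. The window of TNFRSF8 is chr1:12063053-12063352, plus strand, and that of FAS is chr10:88990548-88990847, plus strand.
TNFRSF8: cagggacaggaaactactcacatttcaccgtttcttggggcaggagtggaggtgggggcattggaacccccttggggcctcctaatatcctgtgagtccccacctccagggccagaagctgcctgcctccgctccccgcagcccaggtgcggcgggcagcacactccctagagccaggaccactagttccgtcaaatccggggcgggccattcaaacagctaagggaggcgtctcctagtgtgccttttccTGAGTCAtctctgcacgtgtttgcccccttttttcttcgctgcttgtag
FAS: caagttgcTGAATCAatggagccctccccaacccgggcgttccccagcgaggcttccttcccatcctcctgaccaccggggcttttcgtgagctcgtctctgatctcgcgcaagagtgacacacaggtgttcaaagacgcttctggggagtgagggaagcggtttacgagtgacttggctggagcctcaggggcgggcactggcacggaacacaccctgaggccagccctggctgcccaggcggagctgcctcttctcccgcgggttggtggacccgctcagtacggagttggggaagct
It lay at bases 252 to 258 of the TNFRSF8 window, just after the start, and at bases 9 to 15 of the FAS window. Of 61 higher genes with a window that were called with and without Reh array 1, 10 (16.4%) held this motif, against 5.84% of the 15384 measured genes and 1 of the 39 lower genes (2.56%). The NF-kB motif was in 18.0% of the higher and 15.4% of the lower genes, against 12.4% of the measured ones.  No test was made of these shares.

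Of NF-kB targets and regulators 6 of 33 were higher and 0 lower (18.2% called, against 0.89% of all genes). Differences above 0 were found in 31, against 8553 of the 19775 over all genes, and the median was 2.07 log2. CCND2, cyclin D2, was at 12.24, 12.31 and 12.13 in the Hodgkin lines and 3.65, 4.91 and 3.99 in the others, one of the largest differences of all genes (8.05 ± 0.34 log2, SE, adjusted p = 0.00277), and at 5.21 log2 as the mean of 4 probe sets. NFKB2, the p100 subunit of the alternative pathway, was at 9.74, 10.51 and 10.10 against 6.92, 6.89 and 7.02 (3.17 ± 0.21 log2, SE, adjusted p = 0.00734). CCND2 and NFKB2 were called in all 29 alternative fits, although 1 of the 3 probe sets of NFKB2 had the opposite sign (1.88 log2 as their mean). CFLAR, a brake on death receptors, was at 12.13, 12.12 and 11.13 against 8.18, 8.29 and 7.71 (3.73 ± 0.33 log2, SE, adjusted p = 0.0167), and IER3, an early response gene, at 9.95, 10.73 and 10.43 against 6.33, 5.997 and 7.17 (3.88 ± 0.37 log2, SE, adjusted p = 0.0194). CCR7 and ICAM1 (3.27 log2, adjusted p = 0.0374), an adhesion molecule, completed the 6. The call of ICAM1 was lost on leaving out any single line (0.0599 to 0.141 as adjusted p), on leaving out Reh array 1, L1236 array 2 or Namalwa array 2 (0.0535 to 0.0951), with the mean of its probe sets (2.89 log2, 0.0636), with its most variable probe set (3.49 log2, 0.0909) and with arrays centred on their medians (0.0501). That of CFLAR was lost on leaving out any line except KM-H2 (0.0502 to 0.0772 as adjusted p), with the mean of its probe sets (2.36 log2, 0.0961) and with its most variable probe set (3.63 log2, 0.0898), and that of IER3 on leaving out any line except L428 or Reh (0.0522 to 0.0959 as adjusted p). The feedback inhibitors NFKBIA and TNFAIP3 did not pass. NFKBIA was at 12.33, 12.69 and 12.83 against 9.24, 9.62 and 11.22 (2.59 log2, adjusted p = 0.151). TNFAIP3, which encodes A20, was at 13.58, 10.25 and 9.91 in the Hodgkin lines, highest in L428, and at 6.51, 6.15 and 11.82 in the others, where Reh exceeded L1236 and KM-H2.

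In the JAK-STAT list 2 of 24 members were higher and 0 lower (8.33% called, against 0.89% of all genes, median 1.32 log2). IL13RA1, a chain of the IL-13 receptor, was at 10.67, 10.85 and 9.24 in the Hodgkin lines and 4.59, 3.99 and 4.20 in the others (5.99 ± 0.47 log2, SE, adjusted p = 0.012), and the call was lost on leaving out Namalwa or SU-DHL-4 (0.0523 to 0.0604 as adjusted p) and with the T-derived lines in the fit (0.201). SOCS3, a feedback inhibitor, was at 7.36, 8.84 and 7.20 against 3.86, 3.83 and 3.81 (3.97 ± 0.46 log2, SE, adjusted p = 0.0335), and the call was lost on leaving out any line except L1236 or KM-H2 (0.0723 to 0.136 as adjusted p), on leaving out L1236 array 1 or KM-H2 array 2 (0.0501 to 0.0736), with the mean of its probe sets (1.15 log2, 0.11) and with its brightest probe set over the 11 arrays (0.59 log2, 0.441). SOCS1 and STAT3 did not pass, with 3.50 log2 (adjusted p = 0.0927) and 2.39 log2 (0.244). CISH, another feedback inhibitor, was at 10.53, 11.74 and 7.35 in the Hodgkin lines and 6.73, 6.72 and 7.04 in the others, so that L428 and L1236 stood above KM-H2 (adjusted p = 0.364). By limma 0 of 30 interferon genes passed (median 1.09 log2). An unadjusted p under 0.05 was found for 9 of them, against 12.7% of all genes. IRF4, a factor of activated B cells and plasma cells, was even within the Hodgkin lines at 11.68, 11.64 and 11.81 and uneven in the others at 9.19, 5.81 and 5.87 (4.75 log2, adjusted p = 0.142). IFITM1, a membrane protein that blocks virus entry, was at 10.53, 12.02 and 11.99 against 8.08, 5.38 and 8.61 (4.16 log2, adjusted p = 0.176).

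Among 40 cytokines and chemokines 2 were higher, CCL5 and IL32, and 0 lower (5.0% called, against 0.89% of all genes, median 1.10 log2). IL32, a cytokine of activated lymphocytes, was at 10.88, 10.80 and 11.18 in the Hodgkin lines and 6.46, 5.63 and 5.42 in the others (5.12 ± 0.30 log2, SE, adjusted p = 0.00499), and both genes were called in all 29 alternative fits. IL6 was at 8.23, 10.87 and 9.88 against 5.67, 5.88 and 5.52 and did not pass (3.97 log2, adjusted p = 0.0956). Of 39 cytokine and chemokine receptors 5 were higher and 0 lower (12.8% called, median 0.89 log2), and 5 without Reh array 1. IL1R2, a decoy receptor for interleukin 1, was at 12.34, 13.26 and 11.94 in the Hodgkin lines and 4.56, 4.60 and 4.10 in the others (8.09 ± 0.38 log2, SE, adjusted p = 0.00286). IL18R1, a chain of the IL-18 receptor, was at 9.09, 8.56 and 9.09 against 5.08, 3.53 and 4.23 (4.64 ± 0.42 log2, SE, adjusted p = 0.0172), and IL2RB, the beta chain shared by the IL-2 and IL-15 receptors, at 9.90, 9.47 and 10.72 against 6.26, 5.87 and 5.53 (4.14 ± 0.37 log2, SE, adjusted p = 0.0167). The call of IL18R1 was lost on leaving out L428, L1236 or Reh (0.0537 to 0.0671 as adjusted p) and that of IL2RB on leaving out any line except L1236 or KM-H2 (0.0541 to 0.0756 as adjusted p). The remaining higher receptors were CCR7 and IL13RA1.

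In the TNF receptor family FAS and TNFRSF8 were higher of 23 members (8.7% called, against 0.89% of all genes), 0 were lower and the median was -0.03 log2. FAS, a death receptor, was at 11.91, 11.22 and 11.17 in the Hodgkin lines and 5.30, 4.26 and 4.37 in the others (6.79 ± 0.36 log2, SE, adjusted p = 0.00388), and was called in all 29 alternative fits. TNFRSF11A, which encodes RANK, was at 9.89, 12.11 and 8.39 against 4.16, 5.04 and 4.63 and did not pass (adjusted p = 0.101). Of 22 checkpoint and costimulation genes 0 passed in limma (median 0.73 log2). An unadjusted p under 0.05 was found for 6 of them, against 12.7% of all genes. LGALS1, galectin 1, was at 13.45, 13.06 and 13.63 in the Hodgkin lines and 6.65, 9.45 and 7.91 in the others. It missed the threshold (5.37 log2, adjusted p = 0.052), although it passed in 13 of its 29 alternatives (adjusted p up to 0.141). Its Reh arrays 1 and 2 were at 9.44 and 6.37, and without Reh array 1 the difference was 5.89 log2 (adjusted p = 0.0795). CD274, which encodes PD-L1, was at 7.02, 10.38 and 7.58 against 4.84, 4.68 and 4.44 (3.67 log2, adjusted p = 0.197). No overlap was seen in either gene, and L1236 had the highest value of CD274.

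No antigen presentation gene passed the test between the groups. Of 16 measured MHC class II genes 0 passed in limma, and the median was 0.00 log2. An unadjusted p under 0.05 was found for 1 of them, against 12.7% of all genes. Among the Hodgkin lines 14 of the 16 differed (F test, against 43.8% of all genes), with a median range of 2.40 log2. HLA-DRA, the alpha chain of HLA-DR, was at 13.09, 10.79 and 13.50 in the Hodgkin lines and 12.03, 12.54 and 12.73 in the others (0.03 log2, adjusted p = 0.989), with L1236 lowest of all lines. HLA-DQA1 was at 12.75, 5.57 and 12.88 against 5.52, 5.63 and 5.88 (4.72 log2), but its 3 probe sets had 4.72, -2.73 and -1.11 log2, so its direction depended on the probe set. Of 17 MHC class I genes 0 passed in limma (median 0.83 log2). An unadjusted p under 0.05 was found for 2 of them, against 12.7% of all genes. B2M, the light chain of class I, was at 13.42, 14.07 and 14.20 against 13.75, 13.56 and 14.03 (0.12 log2, adjusted p = 0.853).

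Genes of adhesion, shape and movement had 3 higher and 1 lower of 41 (9.76% called, against 0.89% of all genes, median 1.77 log2). ANXA1, a membrane-binding annexin, was at 10.63, 10.12 and 8.54 in the Hodgkin lines and 5.05, 4.37 and 4.25 in the others (5.20 ± 0.59 log2, SE, adjusted p = 0.032), and the call was lost on leaving out any line except KM-H2 (0.0667 to 0.126 as adjusted p), on leaving out KM-H2 array 2 or Namalwa array 2 (0.0503 to 0.082) and without Reh array 1 together with Namalwa array 2 (0.0556). As the mean of its 2 probe sets ANXA1 had 2.60 log2, still called. LMNA, which encodes lamin A of the nuclear envelope, was at 9.88, 10.25 and 10.69 against 7.84, 7.22 and 7.13 (2.88 ± 0.29 log2, SE, adjusted p = 0.0232), and the call was lost on leaving out L1236, SU-DHL-4 or Reh (0.0753 to 0.0991 as adjusted p) and with the T-derived lines in the fit (0.108). As the mean of its 6 probe sets, whose differences ran from -0.10 to 4.21 log2, LMNA had 2.02 log2, still called. ICAM1 was the third higher gene. S100A4, a calcium-binding protein of motile cells, was the lower one, at 5.40, 5.80 and 5.92 in the Hodgkin lines and 10.22, 9.52 and 10.30 in the others (-4.30 ± 0.27 log2, SE, adjusted p = 0.00569), and the call was lost with the T-derived lines in the fit (0.263). VIM, vimentin, was at 14.29, 13.27 and 13.78 in the Hodgkin lines and at 6.93, 6.42 and 13.05 in the others, where Reh stood close to the Hodgkin lines (adjusted p = 0.364). Among 26 receptor tyrosine kinase and MAPK feedback genes MET was the 1 higher gene, and 0 were lower (3.85% called, median 0.72 log2). MET, the receptor of hepatocyte growth factor, was at 13.08, 10.21 and 10.33 against 4.57, 4.20 and 4.54 (6.77 log2, adjusted p = 0.0382), highest in L428, and the call was lost on leaving out any line except L428 (0.0587 to 0.148 as adjusted p), on leaving out KM-H2 array 2 (0.0556), with the mean of its probe sets (3.37 log2, 0.164) and with the T-derived lines in the fit (0.0842).

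Apoptosis regulators had 2 higher of 23, FAS and CFLAR, and 0 lower (8.7% called, against 0.89% of all genes, median 0.10 log2). Of 34 cell cycle genes CCND2 was the 1 called (2.94%, median -0.25 log2). In the eicosanoid list of 16 (12.5% called) PTGER4, a prostaglandin E2 receptor, was higher and ALOX5, the enzyme of leukotriene synthesis, lower. PTGER4 was at 12.65, 11.77 and 12.84 in the Hodgkin lines and 7.94, 8.02 and 7.48 in the others (4.61 ± 0.33 log2, SE, adjusted p = 0.00879) and was called in all 29 alternative fits. DTX1, a ubiquitin ligase induced by NOTCH, was the 1 lower gene of 25 in the NOTCH list (4.0%), and 0 were higher. DTX1 was at 6.27, 6.68 and 5.88 in the Hodgkin lines and 10.58, 10.57 and 9.98 in the others (-4.10 ± 0.28 log2, SE, adjusted p = 0.00734). In the PI3K and adaptor list DOK3 and PTPRCAP (-3.29 log2, adjusted p = 0.0225), a partner of the phosphatase CD45, were lower of 31 (6.45% called). The call of PTPRCAP was lost on leaving out any line except SU-DHL-4 (0.0587 to 0.0777 as adjusted p), on leaving out Reh array 1 (0.116) and with the T-derived lines in the fit (0.227). In limma 0 members passed among 16 MYC and telomerase genes (median -0.08 log2), 25 chromatin genes (-0.05), 11 deaminase and repair genes (0.00) and 5 long noncoding genes (-0.06). MYC itself was at 11.70, 11.41 and 10.25 against 13.13, 12.60 and 12.61 (-1.66 log2, adjusted p = 0.204). An unadjusted p under 0.05 was found for 3, 7, 3 and 2 members of these lists in that order, against 12.7% of all genes. APOBEC3B, a cytidine deaminase, was at 11.46, 11.24 and 10.33 in the Hodgkin lines and 3.69, 3.73 and 7.04 in the others (6.19 log2, adjusted p = 0.0851), with no overlap.

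Of the 15 largest rises, 8 belonged to the lists above. DHRS2, a short-chain dehydrogenase, had the largest, with 12.01, 13.35 and 13.70 in the Hodgkin lines and 6.14, 4.13 and 4.25 in the others (8.17 ± 0.72 log2, SE, adjusted p = 0.0163), and the call was lost on leaving out L1236, SU-DHL-4 or Reh (0.0587 to 0.0688 as adjusted p). MARCKS, a membrane-bound substrate of protein kinase C, was at 12.49, 11.16 and 11.13 against 3.51, 3.74 and 3.51 (8.01 ± 0.40 log2, SE, adjusted p = 0.0037). The cancer-testis genes MAGEB2 and MAGEB1 rose together. MAGEB2 was at 10.69, 11.13 and 12.18 in the Hodgkin lines and 3.97, 4.06 and 4.11 in the others (7.29 log2, adjusted p = 0.00388), and MAGEB1 at 9.39, 10.28 and 11.34 against 4.01, 4.07 and 3.86 (6.36 log2, adjusted p = 0.0119). KM-H2 was the highest line for both, and the call of MAGEB1 was lost on leaving out Namalwa or SU-DHL-4 (0.0591 to 0.06 as adjusted p). The 2 genes are close relatives, so their probes may share signal, which was not tested. DRC9, a protein of cilia, had 6.26 log2 (adjusted p = 0.00486), TTC39A 6.24 log2 (0.00741) and C4orf54 6.18 log2 (0.0248). As means of their probe sets DRC9 and TTC39A had 3.38 and 2.18 log2, still called. The call of TTC39A was lost with the T-derived lines in the fit (0.181) and that of C4orf54 on leaving out any line except L1236 or KM-H2 (0.0705 to 0.112 as adjusted p).

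Of genes typical of other cell types, 2 T cell genes and 1 myeloid gene were called. Among 25 T cell genes SH2D1A and GATA3 were higher (8.0%, against 0.89% of all genes called) and 0 lower (median -0.06 log2). SH2D1A, the adaptor SAP of T and NK cells, was at 9.20, 9.42 and 9.58 in the Hodgkin lines and 5.22, 4.32 and 4.63 in the others (4.68 ± 0.26 log2, SE, adjusted p = 0.00426), and was called in all 29 alternative fits, with 2.49 log2 as the mean of its probe sets. The T cell receptor chain CD3E was at 5.19, 5.42 and 5.16 against 5.61, 5.76 and 5.35, and CD3D at 5.68, 5.39 and 8.60 against 6.49, 5.94 and 5.87, with KM-H2 the highest line. Neither passed (adjusted p = 0.47 and 0.842). Of 14 NK and cytotoxic genes 0 passed in limma (median -0.01 log2). An unadjusted p under 0.05 was found for 1 of them, against 12.7% of all genes. Among them EOMES, a transcription factor of cytotoxic cells, was at 9.22, 11.46 and 8.82 against 5.78, 5.81 and 5.83 (adjusted p = 0.105). Of 25 myeloid genes ALOX5 was lower (4.0%) and 0 were higher (median -0.17 log2). Of 15 stromal and epithelial genes 0 passed in limma (median 0.01 log2). An unadjusted p under 0.05 was found for 1 of these 15, against 12.7% of all genes.

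Some calls rested on the array Reh 1. Among the lower genes whose call ended without it, ALOX5 and CCDC69 had the largest differences. ALOX5 was at 11.01 in Reh array 1 and 7.29 in array 2, with 3.71, 3.60 and 3.68 in the Hodgkin lines, 10.95 in Namalwa and 11.24 in SU-DHL-4. Its difference was -6.78 log2 with that array (adjusted p = 0.0143) and -6.16 log2 without it (0.125), and both Reh arrays stayed above every Hodgkin array. The call was also lost on leaving out L1236, Namalwa or SU-DHL-4 (0.0517 to 0.065 as adjusted p) and with the mean of its probe sets (-3.27 log2, 0.0576). CCDC69 was at 11.90 and 7.10 in Reh arrays 1 and 2, and NLRC3, a negative regulator of innate signals, at 10.17 and 6.90. Without Reh array 1 their adjusted p were 0.243 and 0.0931, with -5.41 and -4.76 log2. RALGPS2 and GCHFR were the other 2 of the 5 largest, at 0.0586 and 0.0737 without it. The 5 largest rises lost this way were RGS1, ELL2, EML1, COL22A1 and FAM171B, with differences of 6.81 to 4.30 log2 and adjusted p of 0.051 to 0.122 without the array. Several of these calls were near the threshold, and those of CCDC69, RALGPS2, NLRC3, GCHFR, EML1, COL22A1 and FAM171B also ended on leaving out between 1 and 5 of the lines in turn (adjusted p = 0.0503 to 0.172). Averaging probe sets ended the calls of FAM171B (1.43 log2, adjusted p = 0.103), COL22A1 (3.11 log2, 0.314), RALGPS2 (-3.79 log2, 0.0636) and CCDC69 (-6.06 log2, 0.0575). With the T-derived lines in the fit those of FAM171B (0.286), COL22A1 (0.0861) and CCDC69 (0.0762) ended, and in the fit of 10 numbered arrays that of CCDC69 (0.053, and 0.0931 with the replicate block). Single arrays left out ended those of GCHFR (Namalwa array 1, 0.0982), COL22A1 (Namalwa array 2, 0.051), FAM171B (Namalwa array 2, 0.0505) and EML1 (array 2 of any of L428, L1236, KM-H2 and Namalwa, up to 0.0602), and so did choosing the brightest EML1 probe set over 11 arrays (0.0505).

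**Figure D4:**
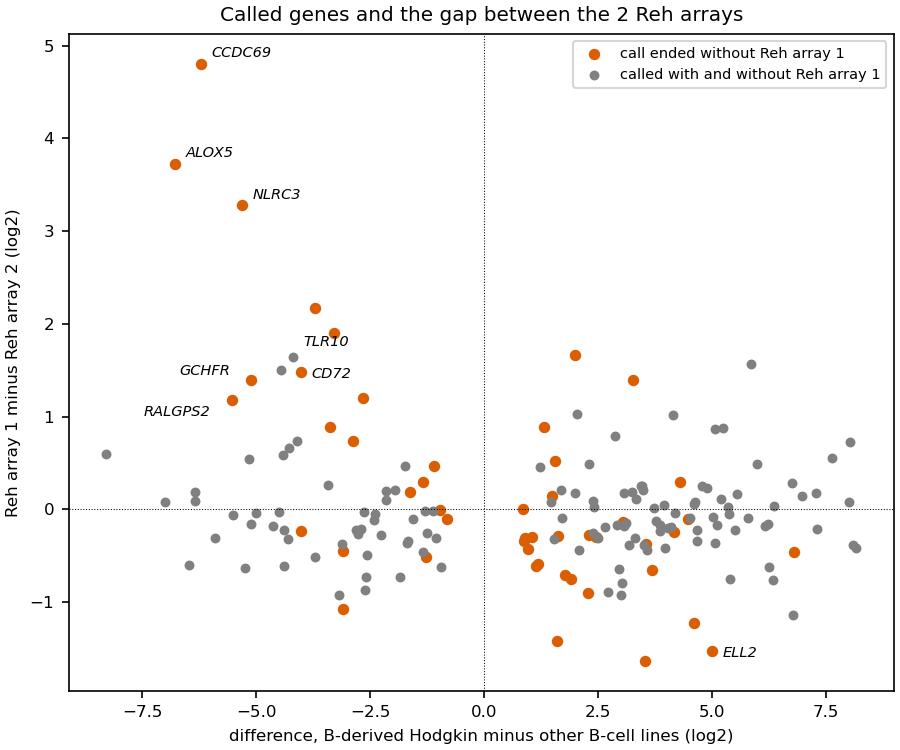
The 176 called genes, plotted as the difference of line means (horizontal axis, log2, B-derived Hodgkin minus other B-cell lines) against the gap between Reh arrays 1 and 2 (vertical axis, log2). Orange points lost their call without Reh array 1, and the largest gaps are those of CCDC69, ALOX5 and NLRC3 among the lower genes.

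The 3 Hodgkin lines also differed strongly from one another. An F test on their 6 arrays called 8659 of the 19775 genes (43.8%), 4995 of them (25.3%) with a range of line means of at least 1 log2. The spread in this test is that of duplicate cultures of a line, far smaller than that between lines, so the number of calls cannot be set against the 176 above. Of the 176 genes, 76 also differed among the Hodgkin lines, a share near the 43.8% of all genes. The values below were picked for their range and describe it. Several genes were found in 1 line. FCER1A, the alpha chain of the IgE receptor, was at 13.38 in L1236 and at 3.71 and 3.65 in L428 and KM-H2. L1236 alone also had IL3 (11.96, against 4.15 and 4.12), the chemokine gene CCL2 (10.36, against 3.83 and 3.72) and ALOX15, a lipoxygenase (9.90, against 4.19 and 3.66). KM-H2 alone had CR2, the complement receptor CD21 of mature B cells, at 12.18, with 4.39 in L428 and 4.19 in L1236. It likewise had the antisense transcript TMEM132D-AS1 (13.12), the cancer-testis gene MAGEA4 (12.34) and the elastase gene MMP12 (12.39), each at most 4.85 in the other two lines. L428 alone had S100A6, a calcium-binding protein, at 11.97, with 4.83 in L1236 and 5.18 in KM-H2.

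Other genes were high in 2 lines and low in 1. PERP, a p53 target of cell junctions, was at 13.31, 11.57 and 4.43 and EPHB1, an ephrin receptor, at 12.20, 12.34 and 3.67 in L428, L1236 and KM-H2, so that KM-H2 lay at the level of the other B-cell lines (4.19, 4.09 and 5.002 for PERP and 3.72, 3.68 and 3.71 for EPHB1). PLS3, an actin bundler, was at 3.43, 11.16 and 12.57 and YBX3, a cold shock protein, at 3.58, 12.26 and 12.39, both lowest in L428. THEMIS, a regulator of T cell development, was at 12.35, 3.89 and 9.67, lowest in L1236, and at 3.71, 3.53 and 3.38 in the other B-cell lines. SOX4, a factor of lymphocyte development, was at 9.93, 10.99 and 3.60 in the Hodgkin lines and 5.85, 9.32 and 12.004 in the others. The Namalwa value averages arrays 1 and 2, which were at 7.72 and 3.97. Within the lists, MHC class II genes had the largest median range (2.40 log2), then genes of adhesion (2.07) and B lineage transcription factors (2.04), and stromal, immunoglobulin and NK genes the smallest (0.17, 0.19 and 0.20).

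**Figure D5:**
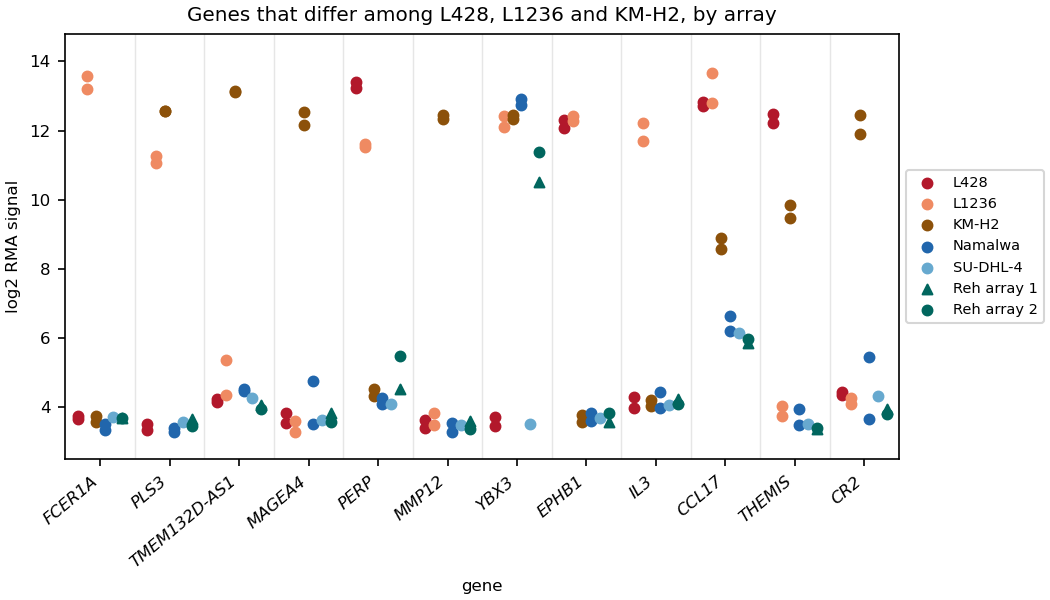
Log2 RMA signal (vertical axis) of 12 genes that differ among the 3 Hodgkin lines (horizontal axis), 1 point per array coloured by line, with the Hodgkin lines left within each gene and Reh array 1 as a triangle. FCER1A and IL3 were high in L1236, MMP12, MAGEA4 and CR2 in KM-H2, and EPHB1 in L428 and L1236.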

How the data were processed

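RNA of the 11 arrays described above was measured on Affymetrix U133 Plus 2.0 arrays. The deposited log2 signals were made by the authors with RMA, per the submitters' processing notes, while the program behind it and its options are not stated there. RMA compresses differences near background, so folds of dim genes are understated, and the number of arrays limits the precision. The table has 54675 probe sets, of which 41091 had 1 gene symbol, 1801 several and 11721 none, and 62 were controls. Genes were named from the platform annotation, and 41037 probe sets matched a RefSeq gene table by Entrez identifier. Each gene took its probe set of highest mean over the 15 arrays, which gave 19775 genes.

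Arrays of a line were averaged. Differences, B-derived Hodgkin minus other B-cell lines, came from limma 3.58.1 in R 4.3.3 (lmFit, then eBayes). Two-sided p-values were adjusted by Benjamini and Hochberg's method across the 19775 genes and called under 0.05 (4 residual and 1.41 prior degrees of freedom). Differences among the Hodgkin lines used an F test on 6 arrays. Same-numbered arrays of these lines deviated together (correlations 0.26 to 0.31), so the numbers pair them by that measure.

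Named were the 15 largest rises and falls called with and without Reh array 1, up to 3 called members of each list in each direction (or the 2 largest differences), a set of markers, genes with the largest range among the Hodgkin lines and the largest calls that ended without Reh array 1. B2M, BATF, CD22, HLA-DRA, IL18R1, IL2RB, IL6, JCHAIN, JUNB, MYC, NFKB2, NFKBIA, SOCS1, STAT3 and TNFAIP3 were named outside this rule after their values were seen. Members and the 34 lists were chosen with earlier results of these data known, and some list members were not analysed here. No list was tested as a set, so the share called in a list describes its members only. In simulated data with 19775 genes, 3 lines against 3 recovered 56 of 100 genes changed by 2 log2 and 89 of 100 changed by 5 log2, with 2 false calls. Alternatives changed the probe set rule, dim-gene filter, scaling, variance model, replicate block and line block, added the T-derived lines to the fit, or left out each line or array. The 29 alternative fits exclude the test against a difference of 1 log2, which is given apart.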

Additional observations from a re-analysis of the deposited data

How the results depend on the processing

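The count of genes higher or lower in B-derived Hodgkin lines, 176, moved by over 1.5 times in several fits. It was 60 when a difference of at least 1 log2 was required. With 11 arrays and the line as a random block it was 1002. The 10 numbered arrays, also with the line as a random block, gave 501 with the replicate number as a block and 725 with no replicate block. The fits giving 1002, 501 and 725 took arrays as units, with the same correlation within lines for every gene. Repeat arrays of a line add to their degrees of freedom, so these counts are not of equal standing with 176. The replicate numbers were not taken to pair the groups, since deviations of same-numbered arrays correlated at 0.14 to 0.20 between Reh and the Hodgkin lines but at 0.03 to 0.06 between Namalwa and the rest. Lines left out in turn gave 82 to 220 called genes, and single arrays left out 128 to 234, lowest without Reh array 1 and highest without Reh array 2. Leaving out Reh array 1 together with Namalwa array 2, an alternative chosen after seeing the data, kept the count within 1.5 times of 176. The other settings gave 155 to 202. The count of genes that differ among the 3 B-derived Hodgkin lines was 6503 to 9670 (9670 with the replicate block), against 8659.

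Over the named genes no called value changed sign, 248 of the values under alternatives lost a call, 82 gained one and 4225 did neither. Signals near background limit the folds of dim genes, and 3 lines a group limit what could be called.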

Other observations

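Further genes called in every one of the 7 fits without 1 line or without Reh array 1 lie outside the naming rule and were chosen here after their values were seen. PRAME, a tumour antigen that represses retinoic acid signalling, was at 10.20, 11.56 and 10.91 in L428, L1236 and KM-H2 and at 5.97, 5.86 and 5.64 in Namalwa, SU-DHL-4 and Reh (5.07 ± 0.36 log2, SE, limma adjusted p = 0.00863). KIF21A, a kinesin, was at 8.98, 9.15 and 9.80 in the Hodgkin lines and 4.02, 3.96 and 3.85 in the others (5.37 log2, adjusted p = 0.00277, and 3.25 log2 as the mean of its probe sets). KCNMA1, a calcium-activated potassium channel, was at 10.99, 10.79 and 10.63 against 5.42, 4.64 and 4.78 (5.86 log2, adjusted p = 0.00277, and 2.97 log2 as the mean of its probe sets, where it was not called, 0.052). The mitochondrial enzymes AK4, which moves phosphate between nucleotides, and SQOR, which oxidises sulfide, had 5.56 and 4.89 log2 (adjusted p = 0.00388 and 0.00388). TNFAIP6, a hyaluronan-binding protein induced by TNF, was at 8.80, 8.69 and 8.37 in the Hodgkin lines and 4.59, 4.89 and 4.55 in the others (3.94 log2, adjusted p = 0.00277). AHNAK and CTTN, both linked to the cell cortex, had 3.46 and 4.68 log2, with 1.09 and 1.73 log2 as means of their probe sets, where AHNAK was not called (adjusted p = 0.0692).

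Among lower genes outside the rule, MILR1, an inhibitory receptor first described on mast cells, was at 4.25, 4.21 and 4.31 in the Hodgkin lines and 7.89, 7.85 and 8.13 in the others (-3.70 ± 0.12 log2, SE, adjusted p = 0.00142). TLR10, a Toll-like receptor of B cells, was at 4.31, 4.56 and 4.48 against 8.83, 8.92 and 8.20 (-4.20 log2, adjusted p = 0.00388), with 9.02 in Reh array 1 and 7.37 in array 2, and its adjusted p was 0.0373 without the first. GPD2, the mitochondrial glycerol phosphate dehydrogenase, had -4.38 log2 (adjusted p = 0.00631, and -2.03 log2 as the mean of its probe sets). DANCR, a long noncoding RNA and snoRNA host, was at 10.50, 10.75 and 10.54 against 12.50, 12.73 and 12.45 (-1.96 log2, adjusted p = 0.00829), a difference between signals that were bright in all lines. The calls of PRAME, AK4, GPD2 and DANCR were lost with the T-derived lines in the fit, with adjusted p of 0.11 for PRAME, 0.206 for AK4, 0.146 for GPD2 and 0.142 for DANCR.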
